A study of Sus scrofa with 12 samples.

Results

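Collagens and other genes of the extracellular matrix were followed in the mucosa of the jejunum, the middle stretch of the small intestine, in 12 pigs. The genes came from a list of 40 symbols matched to the gene symbols in the platform annotation of the array. A named probe set, that is, a group of short probes for a transcript, was found for 38 of the 40, among 12630 named genes tested. COL6A1, a chain of collagen VI, and PDGFRB, a growth factor receptor of pericytes, had no named probe set and were not analysed here. Each gene was represented by its probe set with the highest mean over the 12 arrays, and all 38 had a mean signal above the filter of 2.29 log2 units.

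By their labels 6 pigs were of high feed efficiency and 6 of low feed efficiency, a trait that relates growth to feed intake. Males and females were balanced at 3 and 3 in each group, all were aged 140 days, and each had 1 array, so that each replicate was a separate animal. Not given in the sources used here are the breed, the diet and the way the trait was scored. The labels name no treatment beside the trait itself.

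The matrix of the gut wall is laid down mostly by fibroblasts and smooth muscle cells beneath the epithelium. Fibrillar collagens give the lamina propria its tensile strength and elastic fibres give it recoil. The basement membrane, a thin sheet of collagen IV, laminin and nidogen, anchors the epithelium and wraps vessels and muscle cells. Metalloproteinases (MMPs) and their tissue inhibitors (TIMPs) govern turnover of these proteins, and lysyl oxidase crosslinks them. Values below are log2 signal, so a difference of 1 is a 2-fold change, and levels of different genes are not set against each other because probes differ in brightness. In whole mucosa, fewer cells of a type and less RNA per cell cannot be told apart.

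Median signal per array was between 4.02 and 4.16, and the correlation between any 2 arrays over probe sets was between 0.950 and 0.979. Markers of the labelled tissue were present in every pig: SI, LCT, FABP2, VIL1 and EPCAM averaged 8.66 to 11.02, and ALPI had no named probe set. The high feed efficiency male called high replicate 1 here held the lowest of these means, 8.66 against 9.83 to 11.02 in the other 11 pigs. Markers of gastric and duodenal glands (TFF2, GKN1 and MUC5AC, 3 of 5 listed) averaged 10.99 in that pig and 5.73 to 7.66 in the others. Its smooth muscle markers (7 of 8 listed) averaged 8.80 against 7.75 to 8.68, its goblet cell markers (4 of 5) 11.21 against 9.23 to 10.79, and its pan-epithelial markers 9.99, inside the range of 9.65 to 10.41 of the others. Among the pan-epithelial markers, KRT20 was 10.45 in that pig against 11.2 to 11.85, and KRT18 8.39 against 6.02 to 8.01. EPCAM, CDH1, KRT8 and CDH17 lay inside the range of the others. The results are therefore given with and without this pig. The part of these markers in the matrix values was not tested.

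The first comparison asked whether matrix genes differed with feed efficiency. No matrix gene passed the adjusted threshold of 0.05 (limma with Benjamini-Hochberg adjustment over all probe sets tested), and 0.0% of the 12630 genes did. At an unadjusted p under 0.05, 6 of the 38 genes were higher in the high group and 0 were lower. Over all genes tested 2.8% were called higher and 4.38% lower by that rule. The 6 were FBN1, DDR2, TIMP3, COL12A1, LAMB1 and LAMC1, which come from 5 of the 8 classes described below. Of the 38 genes, 28 had a higher mean in the high group, and their median difference was 0.11 against -0.033 over all genes tested. When high replicate 1 was left out, 19 of 38 were higher, 5 had an unadjusted p under 0.05 (background 4.75% higher and 7.23% lower), and the median difference was 0.0011. The count of higher genes was also 21 without low replicate 1 and 23 without high replicate 2, and it lay between 26 and 30 when any other pig was left out.

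Elastic fibres are built on a scaffold of fibrillin microfibrils. FBN1, the fibrillin of those microfibrils, had signals of 7.68, 8.01 and 8.73 (lowest, median and highest) in high feed efficiency pigs, against 6.63, 7.42 and 7.77 in low feed efficiency pigs. All 6 high pigs lay above the low median and 5 lay above every low pig. The difference of 0.81 (SE 0.231) was 1.75-fold, with p 0.00427 and a limma adjusted p of 0.621. Its other tested probe sets differed by 0.46 (p 0.0190) and 0.31. FBN1 differed by 0.75 without high replicate 1. By the probe sets used, ELN, the elastin core of the fibre, and its assembly partners FBLN5 and FBLN1 differed less, by 0.05 (SE 0.172), 0.05 (SE 0.271) and 0.12 (SE 0.279). The other ELN probe set, with a mean of 5.87, differed by 0.27 (SE 0.1635). FBLN1 read 7.75, 8.21 and 8.98 in high pigs and 7.19, 8.43 and 8.86 in low pigs, with the groups overlapping over most of their range. The signs of ELN, FBLN5 and FBLN1 turned without high replicate 1, to -0.08, -0.18 and -0.08.

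DDR2, a receptor tyrosine kinase of stromal cells that binds fibrillar collagen, had the smallest unadjusted p of the 38 genes. Its signal was 6.25, 6.43 and 7.22 in high feed efficiency pigs and 5.66, 5.98 and 6.33 in low feed efficiency pigs. Again all 6 high pigs lay above the low median, and 4 lay above every low pig. The difference was 0.54 (SE 0.134, p 0.0015, limma adjusted p 0.60), or 1.46-fold, and 0.57 without high replicate 1. A dimmer DDR2 probe set, with a mean of 3.43, differed by 0.10. The other receptor, PDGFRA, which marks fibroblasts, read 6.80, 7.29 and 7.71 in high pigs and 7.17, 7.22 and 7.30 in low pigs. Here the high group spread on both sides of a narrow low group, with 3 pigs above it and 3 below it, and the difference was 0.06 (SE 0.150). Its other tested probe sets, with means of 7.13 and 6.67, differed by 0.37 (SE 0.197) and 0.17 (SE 0.198).

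Among proteases, inhibitors and crosslinking enzymes, TIMP3, an inhibitor of metalloproteinases that stays bound to the matrix, read 7.81, 8.11 and 8.99 in high feed efficiency pigs and 7.54, 7.64 and 7.93 in low feed efficiency pigs. High replicate 1 was the highest, but 5 high pigs exceeded every low pig. TIMP3 differed by 0.57 (SE 0.184, p 0.00871, limma adjusted p 0.621), or 1.49-fold, and by 0.43 (p 0.0143) without high replicate 1. Its second probe set, with a mean of only 2.78, differed by -0.0063. The soluble inhibitors did not follow: TIMP1 differed by -0.31 (SE 0.385) and TIMP2 by -0.06 (SE 0.197). MMP2, a gelatinase made by stromal cells, differed by 0.15 (SE 0.231), and LOX, the crosslinking lysyl oxidase, by 0.23 (SE 0.252). The second LOX probe set, with a mean of only 2.67, differed by 0.53 (limma unadjusted p 0.0186). MMP2 read 7.23, 7.66 and 8.14 in high and 6.97, 7.44 and 8.32 in low pigs, so that the low group enclosed the high group.

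**Figure D1:**
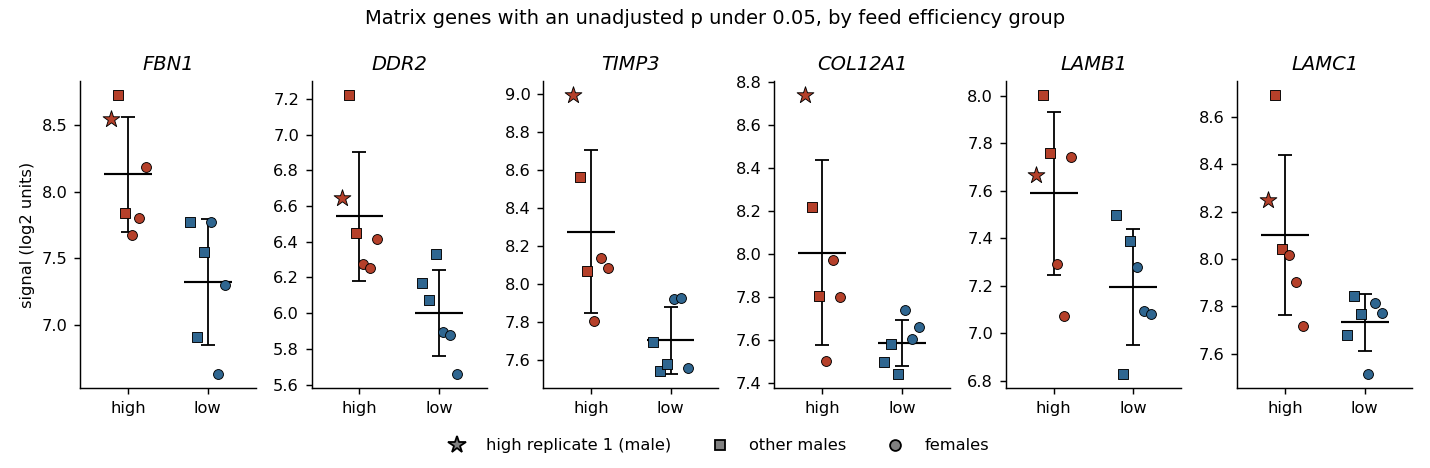
Log2 signal (vertical axes, 1 scale per gene) of the 6 matrix genes with an unadjusted p under 0.05, in 6 high (left, red) and 6 low (right, blue) feed efficiency pigs; the star is high replicate 1, squares are other males, circles are females, long lines are means and whiskers SD. For FBN1, DDR2 and TIMP3 all 6 high pigs lie above the low median, and for COL12A1 and TIMP3 the star is the highest point.

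The laminins are the cross-shaped proteins that organise basement membranes, each built of an alpha, a beta and a gamma chain. LAMC1, the common gamma chain, read 7.72, 8.03 and 8.69 in high feed efficiency pigs and 7.51, 7.77 and 7.84 in low feed efficiency pigs, with 5 high pigs above every low pig. It differed by 0.37 (SE 0.137, p 0.0191, limma adjusted p 0.624), a 1.29-fold difference that was also 0.37 without high replicate 1. LAMB1, a beta chain, read 7.07, 7.71 and 8.0 in high and 6.83, 7.19 and 7.50 in low pigs, with 4 high pigs above every low pig. It differed by 0.39 (SE 0.158, p 0.028, limma adjusted p 0.630), or 1.31-fold, and by 0.41 without high replicate 1. For both chains the second probe set did not show the difference: it was 0.03 for LAMC1 and -0.11 for LAMB1. Leaving out high replicate 2, high replicate 6 or low replicate 2 moved the unadjusted p of LAMB1 above 0.05, whereas LAMC1 stayed below it without any 1 pig.

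The remaining basement membrane genes stood on both sides of 0. LAMA4, an alpha chain of vessel and muscle laminins, differed by 0.29 (SE 0.251), and its other probe set by 0.38 (p 0.0215). The collagen IV chains, which form the network of the sheet, differed by 0.05 (SE 0.160) for COL4A1 and -0.03 (SE 0.123) for COL4A2. COL18A1 and COL15A1, collagens that carry sugar chains beside basement membranes, differed by -0.05 (SE 0.105) and -0.24 (SE 0.245). NID1, the nidogen that links laminin to collagen IV, differed by -0.26 (SE 0.259), but its 4 probe sets ran from -0.26 to 0.37 and disagreed in sign. As a class, 4 of the 8 genes were higher and 4 lower, with a median difference of 0.0098.

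COL12A1, a collagen that decorates the surface of collagen fibrils, read 7.50, 7.89 and 8.74 in high feed efficiency pigs and 7.44, 7.59 and 7.74 in low feed efficiency pigs. Its difference of 0.42 (SE 0.176, p 0.0347, limma adjusted p 0.630), or 1.34-fold, was smaller without high replicate 1, which stood 0.52 above any other pig. In the other 11 pigs the difference was 0.27 (p 0.0662). The unadjusted p also exceeded 0.05 without high replicate 2 or 5 or low replicate 1, 2 or 3. Its other probe sets differed by 0.39 and 0.35. COL6A2, a chain of the beaded filaments around cells, read 8.33, 8.54 and 8.87 in high pigs and 8.19, 8.36 and 8.60 in low pigs. The difference was 0.21 (SE 0.127), with overlap in 4 of 6 high pigs. Both other COL6A2 probe sets went the other way, at -0.17 and -0.26. Its partner chain COL6A3 differed by -0.22 (SE 0.238), and the 10 tested COL6A3 probe sets ran from -0.22 to 0.27. COL14A1, another fibril-surface collagen, differed by 0.0049 (SE 0.244).

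Fibrillar collagens themselves did not separate the groups. COL1A1, the main chain of collagen I, read 9.96, 10.54 and 11.78 in high feed efficiency pigs and 9.59, 10.63 and 11.05 in low feed efficiency pigs, and differed by 0.18 (SE 0.312). COL1A2, its partner chain, read 8.80, 9.36 and 10.14 in high and 8.81, 9.22 and 9.45 in low pigs, a difference of 0.23 (SE 0.214). COL3A1, the collagen of fine pliable fibrils, differed by 0.10 (SE 0.157). The differences of COL1A1, COL1A2 and COL3A1 were -0.08, 0.07 and -0.01 without high replicate 1. The genes of collagen V, which seeds fibrils and sets their width, went opposite ways by these probe sets. COL5A1 differed by -0.37 (SE 0.219) and COL5A2 by 0.16 (SE 0.102), and neither had an unadjusted p under 0.05. The other 3 probe sets of COL5A1 differed by 0.19, -0.05 and 0.18, so its direction depended on the probe set. COL5A1 read 5.43, 6.29 and 6.53 in high pigs and 5.82, 6.48 and 7.03 in low pigs, and COL5A2 read 6.41, 6.67 and 6.75 in high and 6.27, 6.47 and 6.60 in low pigs. A dimmer COL3A1 probe set, with a mean of 5.69, gave a difference of 0.77 (p 0.00300), at odds with the brighter one, which had a mean of 9.54.

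Proteoglycans bind collagen fibrils or fill the space between them. DCN, decorin, a small proteoglycan on collagen fibrils, read 9.26, 10.22 and 10.55 in high feed efficiency pigs and 9.14, 9.92 and 10.22 in low feed efficiency pigs. VCAN, the large space-filling versican, read 6.24, 6.73 and 7.15 in high and 6.24, 6.57 and 6.85 in low pigs. Differences were 0.23 (SE 0.264) for DCN and 0.18 (SE 0.143) for VCAN, with overlapping groups in both. LUM (lumican) and BGN (biglycan), relatives of decorin, differed by -0.13 (SE 0.355) and 0.07 (SE 0.244).

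Matricellular and adhesive glycoproteins link cells to the matrix or tune that contact. THBS1, a thrombospondin that can activate latent TGF-beta, read 7.30, 7.78 and 8.17 in high feed efficiency pigs and 7.10, 7.47 and 8.03 in low feed efficiency pigs, and differed by 0.22 (SE 0.167). TNC, tenascin C, read 7.73, 8.67 and 8.92 in high and 8.28, 8.84 and 9.41 in low pigs, a difference of -0.27 (SE 0.228). Each overlapped broadly between groups. SPARC, a collagen-binding protein, differed by 0.20 (SE 0.242), POSTN, periostin, by 0.12 (SE 0.213), THBS2 by 0.10 (SE 0.130) and FN1, fibronectin, by 0.03 (SE 0.168).

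**Figure D2:**
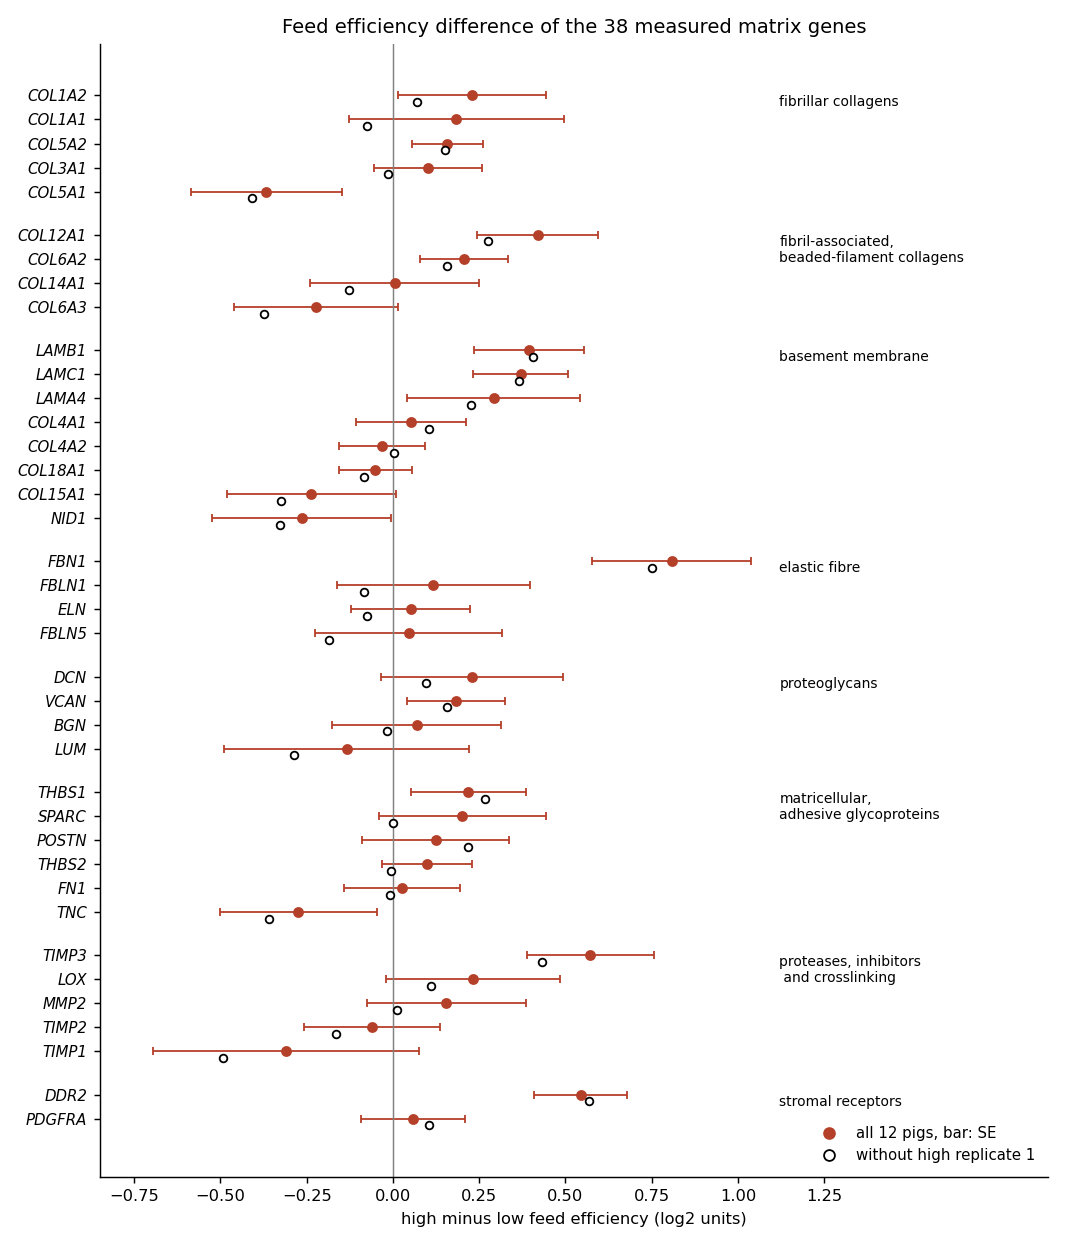
High minus low feed efficiency difference in log2 units (horizontal axis) of the 38 measured matrix genes, grouped by class; filled circles are the fit over 12 pigs with bars of 1 SE, and open circles leave out high replicate 1. Open circles lie left of the filled ones for 31 of the 38 genes, 5 of the 8 basement membrane genes among them, while FBN1, DDR2, LAMB1, LAMC1 and TIMP3 stay above 0.35 with and without that pig.

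High replicate 1 carried the highest value of the 12 pigs for 12 of the 38 genes, or 31.6%, and the lowest for 0. Over all genes tested it was the highest pig for 15.7% and the lowest for 13.8%. The gap to the next pig was over 0.5 log2 units for COL1A1 (0.73), SPARC (0.62), COL12A1 (0.52), THBS2 (0.51) and COL1A2 (0.50). Averaged over the 5 fibrillar collagens, that pig reached 9.05 against 7.94 to 8.66 in the others, and over the 4 elastic fibre genes 7.50 against 6.22 to 7.10. Over the 8 basement membrane genes it reached 7.19, inside the range of 6.70 to 7.36 of the others and second to high replicate 2. High replicate 2, another male, was also the highest pig for 12 genes, among them FBN1, DDR2, LAMB1, LAMC1, POSTN and FN1. Over all genes tested it was the highest for 8.1%. At the low end, high replicate 4, a female, was the lowest pig for 13 genes and low replicate 1, a male, for 8. These 2 pigs were the lowest for 9.0% and 9.7% of all genes tested.

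The class means were compared with and without that pig. For fibrillar collagens the mean over members was 8.48 ± 0.375 (SD, n = 6) in high feed efficiency pigs and 8.42 ± 0.194 in low feed efficiency pigs, which gave a difference of 0.06 that became -0.05 without high replicate 1. For elastic fibre genes it was 6.89 ± 0.397 in high and 6.64 ± 0.310 in low pigs, a difference of 0.26 that became 0.13. For basement membrane genes it was 7.07 ± 0.225 in high and 7.0 ± 0.114 in low pigs, a difference of 0.07 that became 0.04. Each of these differences was smaller than the SD between pigs of the high group. No test was made on class means.

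**Figure D3:**
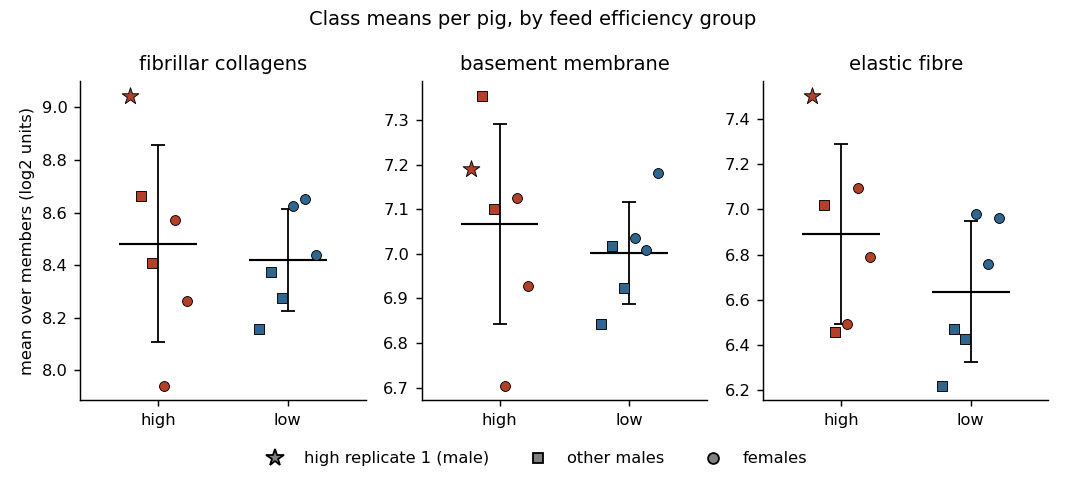
Mean log2 signal over the members of 3 matrix classes (vertical axes) in 6 high (left, red) and 6 low (right, blue) feed efficiency pigs; the star is high replicate 1, squares are other males, circles are females, long lines are group means and whiskers SD. The star is the top point for fibrillar collagens (9.05) and elastic fibre genes (7.50) and not for basement membrane genes (7.19).

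The next comparison asked whether the feed efficiency difference itself differed between males and females. The difference was positive in males for 35 of the 38 genes, with a median of 0.32, and in females for 11 of 38, with a median of -0.18. Over all genes tested 48.4% were positive in males and 42.0% in females, with medians of -0.010 and -0.050. For 8 genes the interaction, the male difference minus the female difference, had an unadjusted p under 0.05, and it was positive for all 8. The background was 2.81% of genes with a positive and 3.91% with a negative interaction by that rule. None of the 38 passed after Benjamini-Hochberg adjustment, with limma adjusted p of 0.743 or more, and no gene of the 12630 did. The 8 were COL1A1, COL1A2, COL6A2, SPARC, FN1, TNC, MMP2 and TIMP3. By the 1 probe set used per gene, none was a basement membrane gene. Other probe sets of NID1 gave interactions of 0.74 (limma unadjusted p 0.0212), 0.59 (p 0.0399) and 0.49 (p 0.228). Those of the remaining basement membrane genes had an unadjusted p of 0.0637 or more.

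FN1, fibronectin, which links cell-surface integrins to collagen, had the smallest unadjusted p for the interaction, 0.00808. Among males it was 9.56, 9.69 and 9.55 in high feed efficiency and 9.13, 9.12 and 9.26 in low feed efficiency pigs. Among females it was 8.66, 9.35 and 9.21 in high and 9.41, 9.45 and 9.49 in low pigs. All 3 high males thus lay above all 3 low males, and all 3 high females lay below all 3 low females. The difference was 0.43 (SE 0.178) in males and -0.38 (SE 0.178) in females, an interaction of 0.81 (SE 0.252, limma adjusted p 0.743). SPARC, which binds collagen as it is assembled, was 11.69, 10.96 and 10.54 in high and 10.09, 10.53 and 10.32 in low males. In females it was 10.25, 10.80 and 10.49 in high and 11.08, 10.80 and 10.72 in low pigs. The groups barely separated in males and overlapped in females, where 1 high pig lay above the lowest low pig, and the interaction was 1.1 (SE 0.385, p 0.0154).

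COL1A1 was 11.78, 10.70 and 10.39 in high and 9.59, 10.48 and 10.21 in low males, and 9.96, 10.86 and 10.34 in high and 11.05, 10.78 and 10.83 in low females. High replicate 1 stood above every other pig, the remaining values overlapped in both sexes, and the interaction was 1.36 (SE 0.509, p 0.0216). COL1A2 was 10.14, 9.64 and 9.13 in high and 8.81, 9.11 and 8.98 in low males, and 8.80, 9.55 and 9.17 in high and 9.45, 9.33 and 9.38 in low females. The 3 high males again lay above the 3 low males, and the interaction was 0.88 (SE 0.360, p 0.0320). The other 4 interactions were 0.93 (SE 0.393) for MMP2, 0.89 (SE 0.395) for TNC, 0.73 (SE 0.314) for TIMP3 and 0.54 (SE 0.208) for COL6A2. TIMP3 was positive in both sexes, at 0.93 in males and 0.21 in females, and TNC differed by 0.17 in males and -0.72 in females.

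**Figure D4:**
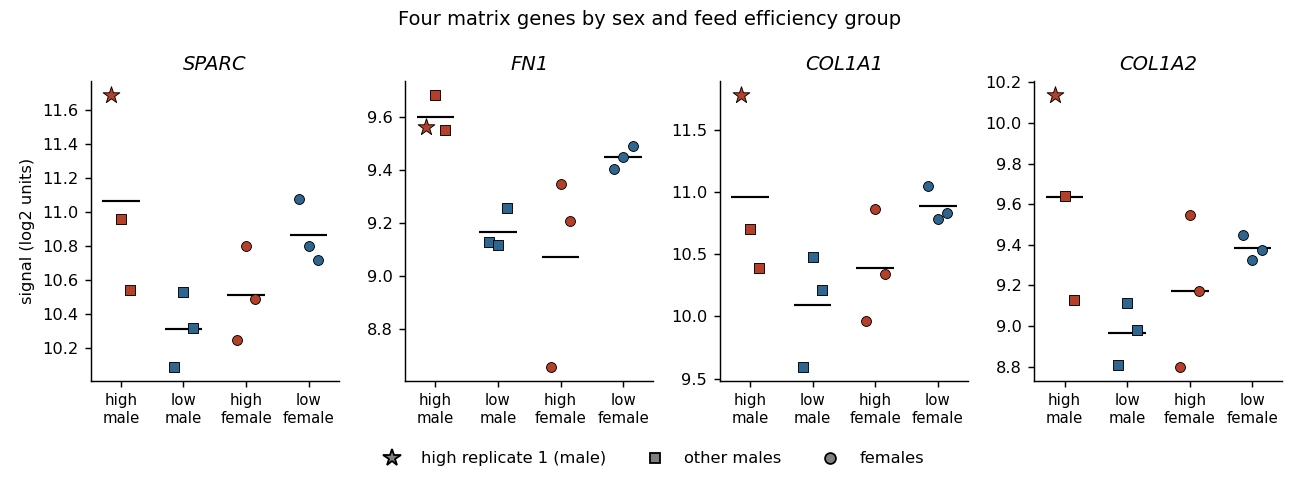
Log2 signal (vertical axes, 1 scale per gene) of SPARC, FN1, COL1A1 and COL1A2 in 3 pigs of each sex and feed efficiency group (high left of low within each sex; red high, blue low); long lines are means, the star is high replicate 1, squares are other males and circles females. High males stand above low males for SPARC, FN1 and COL1A2, and high females stand below low females without overlap for FN1 only.

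Among the other 11 pigs, without high replicate 1, the genes with an interaction p under 0.05 were COL1A1, COL4A1, COL6A2, SPARC and FN1. By that rule 2.04% of all genes had a positive interaction in the same fit. In males 32 of 38 genes were positive, with a median of 0.27, against 45.8% of all genes and a median of -0.032. The interaction was then 0.83 for FN1, 0.78 for SPARC and 0.95 for COL1A1. SPARC and FN1 had an unadjusted p under 0.05 without any 1 pig, and COL1A1 without 10 of the 12 pigs left out in turn. The number of genes was 3 without high replicate 2, high replicate 4 or low replicate 1, 5 without high replicate 6 or low replicate 4, 13 without high replicate 5 and 14 without high replicate 3. It was 6 or 7 without any of the others. No gene had a negative interaction with p under 0.05 in any of these fits. Over the 12 pigs, other probe sets of the same genes gave interactions of 0.91 for SPARC, 0.54 and 0.62 for FN1, 0.75 for MMP2 and 0.04 to 0.99 for COL1A1. Those of COL6A2 gave 0.50 and 0.48, those of TNC 0.27 and 0.60, and the dim second one of TIMP3 0.14. None of these MMP2, COL6A2, TNC and TIMP3 values had an unadjusted p under 0.05. In limma the unadjusted p was 0.0288 for the SPARC value and 0.0981 and 0.0403 for those of FN1. For COL1A1 it was 0.101, 0.0434, 0.020 and 0.914.

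Marker lists of other cell types were read in the same contrast. Smooth muscle markers had a median feed efficiency difference of 0.18 in males and -0.41 in females, and fibroblast markers (4 of 5 listed) 0.21 and -0.36. Enterocyte markers (7 of 8 listed) had -0.83 in males and 0.36 in females, and goblet cell markers 0.54 and -0.38. Without high replicate 1, whose own enterocyte and goblet means lay outside those of the other pigs, the male values were -0.02 for enterocyte and 0.06 for goblet cell markers, 0.11 for smooth muscle and 0.15 for fibroblasts. Endothelial markers had 0.14 in males and 0.08 in females, and pericyte markers -0.06 and -0.09. The list means per pig ran from 7.80 to 8.80 in high and 7.75 to 8.68 in low feed efficiency pigs for smooth muscle, 6.61 to 7.23 and 6.52 to 7.29 for fibroblasts, and 8.77 to 10.85 and 9.96 to 11.19 for enterocytes. Their part in the interaction of the matrix genes was not tested.

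Males and females were compared over both feed efficiency groups. LOX, lysyl oxidase, was 3.57, 4.03 and 4.83 (lowest, median and highest) in males and 4.46, 5.01 and 5.34 in females. It was lower in males, 4 of 6 of which lay below every female, with a difference of -0.87 (SE 0.252, p 0.00470, limma adjusted p 0.480), but its second probe set, with a mean of 2.67, differed by 0.05. DDR2 was 6.07, 6.39 and 7.22 in males and 5.66, 6.08 and 6.41 in females, a difference of 0.42 (SE 0.134, p 0.00845, limma adjusted p 0.480). Its second probe set, with a mean of 3.43, differed by -0.07. By the 1 probe set used per gene no other member had an unadjusted p under 0.05. So 1 of 38 was called lower and 1 of 38 higher in males, against 5.95% and 3.01% of all genes. The dimmer COL3A1 probe set, with a mean of 5.69, was higher in males by 0.94 (limma unadjusted p 0.000684). The second COL5A2 probe set was higher by 0.33 (p 0.0209). The probe sets used for these genes differed by 0.04 and 0.08. With every pig in the fit, the share of members called was not above the background in either direction. Without high replicate 1 or without high replicate 4, 6 members had an unadjusted p under 0.05 for sex, and 4 without low replicate 2. The share over all genes was not computed in those fits, so these counts cannot be set against a background.

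The matrix genes moved together across pigs to different degrees, which is given here as a description. Over the 703 pairs of members the median Pearson r across the 12 pigs was 0.38, against 0.0066 over all pairs of named genes, for which the middle 50% of values ran from -0.26 to 0.27. It was 0.35 when high replicate 1 was left out. All pairs share the same 12 arrays and pieces of tissue. Within classes the median was 0.43 for fibrillar collagens, 0.44 for elastic fibre genes, 0.70 for proteoglycans and 0.18 for basement membrane genes. These were 0.41, 0.25, 0.66 and 0.17 without high replicate 1. Between classes it was 0.49 for fibrillar collagens with elastic fibre genes, 0.33 for fibrillar collagens with basement membrane genes and 0.24 for basement membrane with elastic fibre genes.

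SPARC followed the fibrillar collagens most closely of the 33 members outside that class, with a median r of 0.90 to the 5 of them, followed by ELN at 0.83, DCN at 0.80 and COL12A1 at 0.77. In the 11 pigs without high replicate 1 these were 0.77, 0.66, 0.82 and 0.68. At the other end THBS1, COL4A2 and POSTN had medians of -0.04, -0.02 and 0.0020. The 6 genes with an unadjusted p under 0.05 for feed efficiency lay over most of this range, with medians of 0.27 for DDR2, 0.45 for FBN1, 0.65 for TIMP3, 0.32 for LAMC1, 0.21 for LAMB1 and 0.77 for COL12A1. These were 0.08, 0.21, 0.53, 0.11, 0.06 and 0.68 without high replicate 1.

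**Figure D5:**
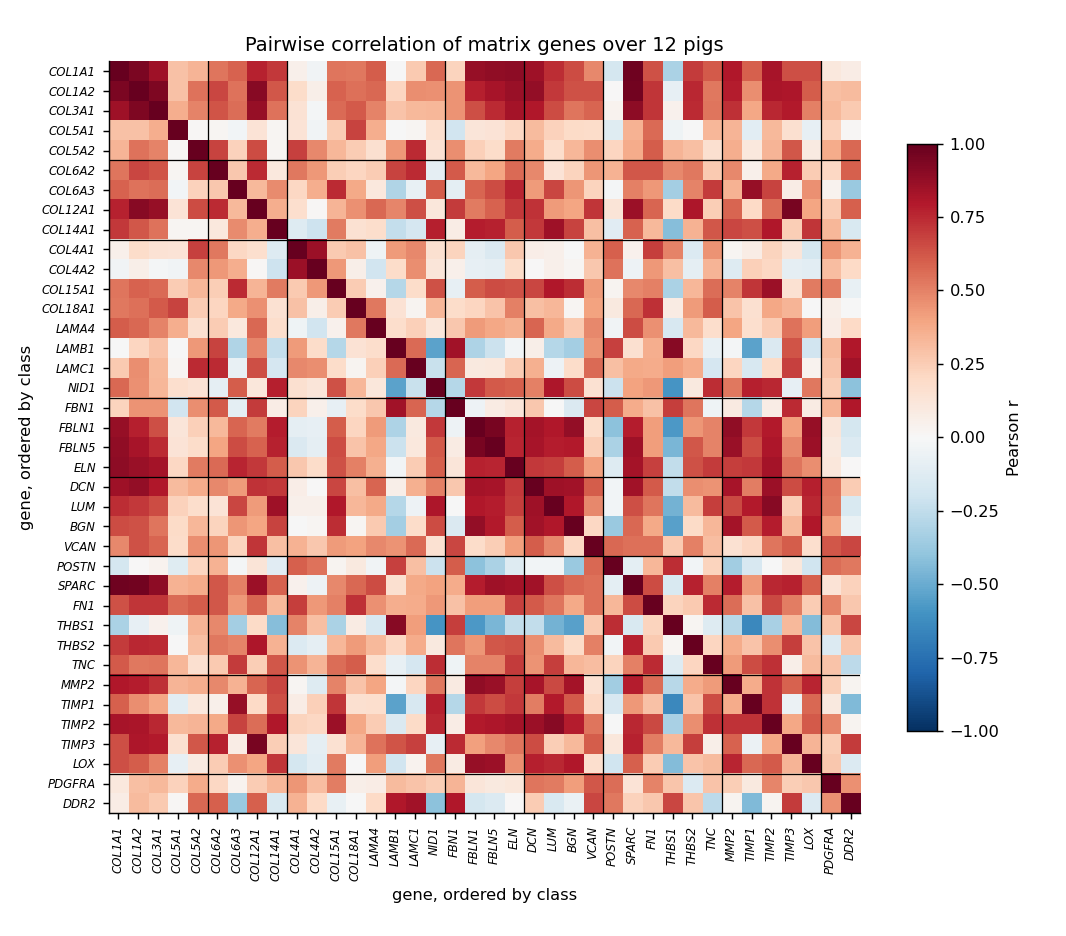
Pearson r across the 12 pigs for each pair of the 38 matrix genes (both axes, genes ordered by class, black lines between classes), from -1 in blue to 1 in red. COL1A1, COL1A2, COL3A1, SPARC, ELN and the proteoglycans form red blocks, while THBS1, POSTN, COL4A1 and COL4A2 stay pale or blue against them.

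Partners in the matrix were then compared in 10 pairs, chosen after the data were seen: 9 pairs of proteins that share a molecule, fibre or sheet, and the protease MMP2 with the inhibitor TIMP2. COL1A1 and COL1A2, the chains of collagen I, had r 0.943 (permutation p 2e-05, adjusted p 0.0002 over the 10) and Spearman rho 0.888 (permutation p 0.00022). COL4A1 and COL4A2, which lie side by side in the Sscrofa11.1 gene table, had r 0.853 (permutation p 0.00043, adjusted p 0.00215) and rho 0.748 (permutation p 0.00727). COL1A1 and COL3A1 had r 0.847 (permutation p 0.00162, adjusted p 0.0054, rho 0.769), ELN and FBLN5 r 0.764 (permutation p 0.00246, adjusted p 0.00615, rho 0.678), and MMP2 and TIMP2 r 0.722 (permutation p 0.0081, adjusted p 0.0162, rho 0.762). Without the 2 pigs farthest from the median of the first gene, r was 0.881, 0.822, 0.846, 0.601 and 0.693 for these pairs. Without high replicate 1 it was 0.894, 0.850, 0.699, 0.666 and 0.670.

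The other 5 pairs had an adjusted permutation p above 0.05. The permutation p-values set each pair against no correlation, not against the r of other pairs of members. Because the pairs were chosen after the data were seen, the split between them is a description only. LAMB1 and LAMC1 had r 0.563 (permutation p 0.0526, adjusted p 0.0877), which was 0.298 without high replicate 2 and low replicate 2. COL6A2 and COL6A3 had r 0.267, ELN and FBN1 0.118, COL5A1 and COL5A2 0.0135, and LAMC1 and NID1 -0.225, with adjusted permutation p from 0.582 to 0.967. Among these pairs, chosen after the data were seen, the chains of collagen I and of collagen IV varied together over these pigs. The median r over all pairs of members was 0.38. Whether partner chains followed each other beyond that shared variation was not tested. For those of collagens V and VI no such relation was detected with the 1 probe set used per gene, and their other probe sets were not compared in this way. COL3A1 and COL5A2, and DCN and LUM, were the other neighbours among the 39 members found in that gene table.

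A wider set of 98 matrix genes outside the 40 was read in the same fit, of which 87 were measured. Of these, 51 were higher and 36 lower in high feed efficiency pigs, with a median difference of 0.05, and -0.0063 without high replicate 1. At an unadjusted p under 0.05, 4 of the 87 were higher and 3 lower, near the background of 2.8% and 4.38% over all genes, and 0 passed after adjustment in limma. Without high replicate 1 the counts were 6 and 2 (background 4.75% and 7.23%). The higher ones were LAMA2, a muscle laminin alpha chain (0.50, SE 0.128), LAMB2, a laminin beta chain (0.47, SE 0.172), TGFB2, a growth factor that induces matrix synthesis (0.56, SE 0.166), and its receptor TGFBR1 (0.41, SE 0.152). The lower ones were P4HB and PLOD1, enzymes that fold and hydroxylate collagen (-0.32, SE 0.112, and -0.23, SE 0.105), and the membrane protease MMP15 (-0.31, SE 0.133). By list, collagen processing genes were higher for 6 of 15, basement membrane genes for 9 of 16, elastic fibre partners for 7 of 8, fibril regulators for 6 of 7, matrix turnover genes for 7 of 15, matrix receptors for 7 of 14 and TGF-beta pathway genes for 9 of 12. The counts for elastic fibre partners and fibril regulators were 4 of 8 and 3 of 7 without high replicate 1.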

How the data were processed

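Expression was measured in jejunal mucosa of 12 pigs on 1-colour Affymetrix Snowball arrays, 1 per pig. RNA was isolated with Qiazol and column-purified, then copied with an Ambion kit and biotin-labelled, per the labels' protocols. The authors deposited log2 values per probe set. Per the submitters' processing notes GCOS 1.1.1 was used; background correction, summarization and normalization are otherwise not given in the sources used here, and no further normalization was applied. The table had 47845 probe sets, of which 123 controls were left out and 26426 had a gene symbol from the platform annotation. Probe sets with a mean above the 25th percentile were tested, 35791 in all, 21967 with a symbol. Neither slide nor scan batches are given, and arrays have no read depth, so their number limits the precision.

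The 40 genes, their 8 classes and the other lists were chosen with earlier results of these data known. limma 3.58.1 (lmFit and eBayes, R 4.3.3) was fitted over all tested probe sets, with Benjamini-Hochberg adjustment and a threshold of 0.05: feed efficiency and sex in an additive model, and the interaction from the 4 means of sex and group. The fits were tested on simulated data. Values are lowest, median and highest per group, or every pig for groups of 3. Members were described in full where an unadjusted p was under 0.05 for feed efficiency, sex or interaction, and otherwise for 2 per class with the smallest p. From the other matrix lists up to 4 genes per list could be named. Correlations were computed in Python 3.11.15 with scipy 1.17.1 and 100000 permutations. Alternatives were quantile normalization, no filter, a filter at the 50th percentile, eBayes with trend and robust variances, array weights, the mean of all probe sets, the probe set of largest SD, no sex term, leaving out each pig, and, added after seeing the data, the SD of each array as a covariate. RefSeq's Sscrofa11.1 table served only for names and for which genes neighbour each other.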

Additional observations from a re-analysis of the deposited data

Results flagged for a closer look

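Among 94 groups of 6 values examined, covering the matrix genes and their class means, 4 held a value far from the rest of its group, and chance alone marks about 1 in 20 groups. TNC, tenascin C, was 7.73 in high replicate 4, a female, with the nearest other high feed efficiency pig at 8.64 and the highest at 8.92. THBS2, a thrombospondin, was 5.96 in high replicate 1, with the next high feed efficiency pig at 5.45. COL6A3, a collagen VI chain, was 8.72 in low replicate 6, with the next low feed efficiency pig at 7.80. TIMP2, a metalloproteinase inhibitor, was 7.43 in low replicate 1, with the next low feed efficiency pig at 7.95.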

How the results depend on the processing

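Over 21 alternatives, no matrix gene passed the adjusted threshold for feed efficiency, and the number with an unadjusted p under 0.05 lay between 4 and 7, against 6 in the reported fit. FBN1, TIMP3 and DDR2 were among them in all 21, LAMC1 in 19, LAMB1 in 15 and COL12A1 in 13. Of all 12630 genes, 354 were called higher and 553 lower by that rule in the reported fit. These counts were smallest with the array SD as a covariate (231 and 220) and largest without high replicate 1 (600 and 913). They were not made for the mean of all probe sets or the probe set of largest SD. For the 16 values with an unadjusted p under 0.05, 317 of 318 refits kept their direction, and the exception was LAMB1 at -0.11 with the probe set of largest SD, which is its dimmer second probe set. Over all 38 genes, 746 of 798 refitted feed efficiency differences kept their sign. All 120 class values stayed within a margin set for each kind. Class mean differences moved by less than the larger group SD between pigs. Median correlations moved by less than the SD of r over gene pairs, which is a wide margin. For fibrillar collagens that median ran from 0.19 to 0.64 over the alternatives, against 0.43 in the reported values. The sex comparison counted 4 genes with quantile normalization, with array weights and with the probe set of largest SD, and 2 to 6 when 1 pig was left out. For the sex comparison the share over all genes was not computed in those fits. The interaction counted 13 genes with quantile normalization and 3 to 14 when 1 pig was left out; the cause was not tested. Of all genes with an unadjusted p under 0.05 for feed efficiency, 39.0% were higher in the reported fit, 47.7% with quantile normalization and 51.2% with the array SD as a covariate. With that covariate, added after seeing the data, 33 of the 38 matrix genes were higher, with a median of 0.29. No paired analysis was possible because replicate numbers were given in accession order and pair no animals. Dim probe sets, such as the second ones of TIMP3 and LOX, limit what a disagreement between probe sets shows.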

Other observations

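Of the 87 measured matrix genes outside the list of 40, high replicate 1 was the highest pig for 27 and the lowest for 4. Those named here were chosen after their values were seen. COL4A6, a collagen IV chain of specialised basement membranes and smooth muscle, was 7.64 in that pig against 2.96 to 5.55 in the other 11. COL4A3, another collagen IV chain, was 5.60 against 3.88 to 4.91, and HSPG2, the basement membrane proteoglycan perlecan, 7.42 against 6.42 to 6.89. PCOLCE, which enhances the trimming of procollagen, was 7.22 against 6.15 to 6.67, and MIA3, which loads collagen into transport vesicles, 8.07 against 7.21 to 7.58. The 4 in which this pig lay lowest included the collagen hydroxylases P4HA1, at 6.84 against 7.16 to 7.79, and PLOD2, at 6.38 against 6.73 to 7.74, and P4HB, at 7.97 against 8.10 to 8.77; the other was the membrane protease ADAM10. Among the collagen IV chains of the list, COL4A1 and COL4A2 ranked 9 and 10 from the top in the same pig, at 6.72 and 6.22.

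The epithelium was read beside the matrix. All 6 pan-epithelial markers were lower in high feed efficiency pigs, with a median difference of -0.25, and 2 of the 6 had an unadjusted p under 0.05, EPCAM at -0.25 (SE 0.115) and CDH17 at -0.61 (SE 0.156), against 4.38% of all genes lower by that rule. Without high replicate 1 the median was -0.29, all 6 were still lower and 2 were called (background 7.23%), CDH17 and CDH1 (p 0.0202), while EPCAM had p 0.0630. Enterocyte markers had a median of -0.25, with 6 of 7 lower, but of 0.19, with 6 of 7 higher, without high replicate 1. LAMA3, the laminin alpha chain of epithelial basement membranes, averaged 7.30 ± 0.699 in the 6 high pigs against 7.92 ± 0.528 (SD) in the 6 low pigs, and differed by -0.62 (SE 0.331) with an unadjusted p of 0.0862. None of these genes passed after adjustment in limma.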
